A study of Sus scrofa with 2 samples.

Results

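Rab proteins are small GTPases that mark the membranes of the cell and direct vesicle traffic between them. Each switches between a GDP-bound form held in the cytosol and a GTP-bound form on a membrane, where it recruits effectors such as tethers and motors. Guanine nucleotide exchange factors (GEFs) switch a Rab on and GTPase-activating proteins (GAPs) switch it off. Neurons use the RAB3 subfamily in the release of synaptic vesicles, and hepatocytes depend on Rab-directed sorting between their blood-facing and bile-facing surfaces.

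RNA of brain and RNA of liver from pigs (Sus scrofa) of the Rongchang breed of China was sequenced, as 1 library for each tissue. The labels used here give no age, sex, brain region or treatment, and do not say whether the pieces of tissue came from the same animal. Rab genes were taken from the deposited table by the gene name (RAB followed by a digit) or by a product described as a ras-related protein Rab, and their effectors, GEFs and GAPs were left out. This gave 57 Rab genes in 58 rows, of 21652 genes in all. Of these, 24 carried a Rab name in the table and 33 were found through the product text, of which 28 were named through a reference gene table and 5 matched no reference gene.

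Total counts were 23796843 for brain and 31724498 for liver. Levels are CPM, counts relative to the library total after TMM scaling, a method that sets the bulk of genes level between libraries. They are not corrected for transcript length, so levels of different genes are not compared. Tissues are compared by the log2 of the brain to liver ratio of CPM, with 1 added to each. It understates the ratio of scarce genes, and a gene was called at 4-fold or more where it reached 2 or -2. As neither tissue had replicates, no test was made, and the 95% intervals cover counting error only. In bulk tissue, fewer cells of a type and less RNA per cell cannot be told apart. Marker genes matched the labelled tissues: 6 of 6 neuronal markers were at 4-fold or more in brain (5550 CPM summed, against 11.7 in liver), and 8 of 8 hepatocyte markers in liver (426887 CPM summed, against 313 in brain). Markers of oligodendrocytes (5 of the 5 that reached 1 CPM) and astrocytes (5 of 5) were also called in brain, and of endothelial cells (3 of 4) in liver.

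Of the 54 Rab genes that reached 1 CPM in at least 1 library, 43 were called in neither tissue, and a few differed by large factors. Of all 15706 genes that reached 1 CPM, 11630 were called in neither tissue. RAB3A, RAB3B, RAB3C, RAB6B, RAB9B and RAB33A were at 4-fold or more in brain. RAB13, RAB17, RAB32, RAB3D and a row annotated as Rab-5C-like reached 4-fold on the liver side. The 54 Rab genes that reached 1 CPM in at least 1 library had a median log2 ratio of 0.09, beside 0.02 for all 15706 genes that did so. Of the 54, 6 (11.1%) were called in brain, where 14.6% of all genes were, and 5 (9.26%) in liver, where 11.3% of all genes were. At 2-fold or more lay 11 Rab genes in brain and 13 in liver, where 27.6% and 24.4% of all genes did, and 30 lay within 2-fold.

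The scaling decided some of these calls. With plain library size the median of all genes moved from 0.02 to 0.98 and the Rab median to 1.03. Then 12 Rab genes were called in brain and 2 in liver, beside 24.2% and 6.02% of all genes. The 6 brain genes stayed called, as did RAB17 and the Rab-5C-like row, while RAB13, RAB32 and RAB3D fell short of 4-fold at -1.76, -1.99 and -1.59. The log2 ratios of 11 Rab genes changed sign: RAB10, RAB18, RAB1A, RAB1B, RAB28, RAB29, RAB2A, RAB37, RAB4A, RAB5B and RAB9A, all below 0 with TMM. Median-of-ratios scaling and TMM without the 50 highest genes of either library changed no call and no sign.

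**Figure D1:**
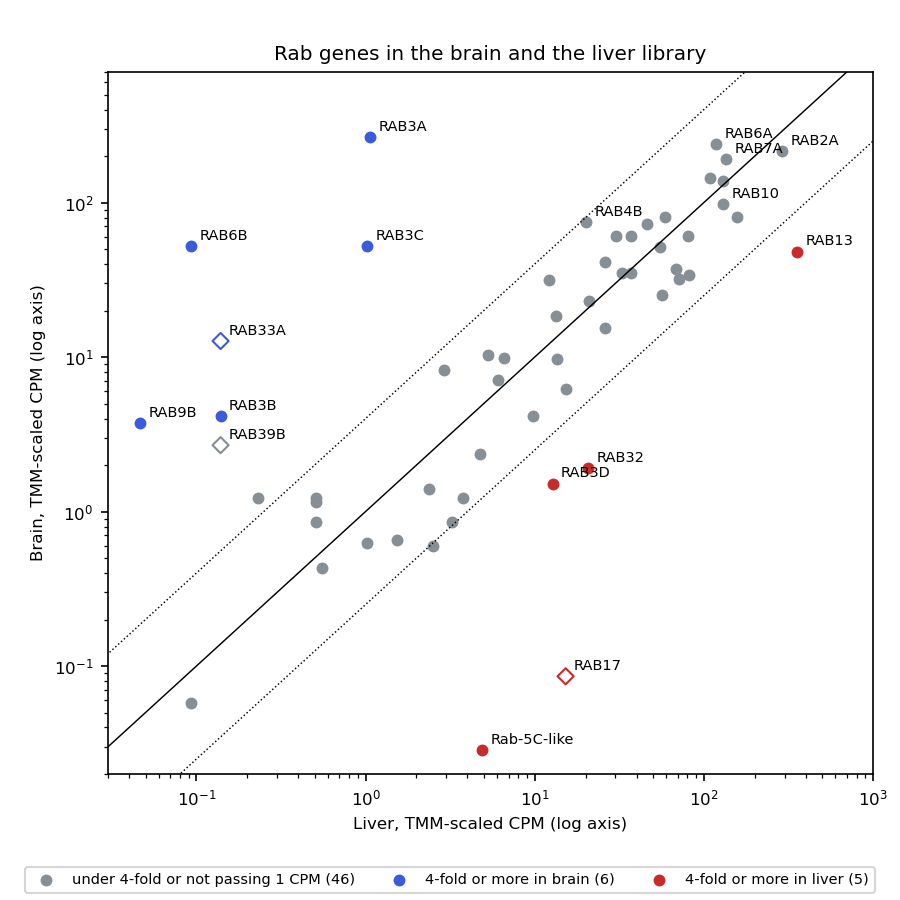
Level of each of the 57 Rab genes in liver (x axis) and brain (y axis), in TMM-scaled CPM on log axes. The solid line marks equal levels and the dotted lines 4-fold without an added 1 CPM, so that some scarce genes beyond them are not called. Open diamonds are genes with 0 counts in 1 library, drawn at a floor of 3 counts. RAB6B (564-fold) and RAB3A (250-fold) stand farthest toward brain, and RAB17 (at least 177-fold) and the Rab-5C-like row (172-fold) farthest toward liver.

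Among Rab genes of regulated secretion, 3 of the 4 members of the RAB3 subfamily were called in brain and RAB3D in liver. RAB3A, the main Rab of synaptic vesicles, had 9297 counts in brain and 23 in liver, which is 266 CPM against 1.06. It was 250-fold higher in brain (95% interval 166 to 394), with a log2 ratio of 7.01 that ranked 63 among the 15706 genes. In brain it took 11.03% of all Rab counts (95% Wilson interval 10.8 to 11.2), a share not corrected for length. The gene lies on chromosome 2 and spans 4714 bp in the deposited table.

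RAB3C, a close relative found on the same vesicles, had 1826 counts in brain and 22 in liver. At 52.2 CPM against 1.02 it was 51.3-fold higher in brain (33.8 to 82.0). It has the longest span of all the Rab rows, 310428 bp on chromosome 16. RAB3B, known from neurons and endocrine cells, was scarce, with 145 counts in brain and 3 in liver, a 29.9-fold difference with a wide interval (10.02 to 146). Liver counts were 0.247% of the brain counts for RAB3A and 1.20% for RAB3C. For the neuronal markers NEFM, STMN2, NEFL, SYT1 and SYN1 they were 0.0115%, 0.0141%, 0.0153%, 0.375% and 0.683%, and ELAVL3 had 0 liver counts. The part of neuronal RNA in the liver values was not tested.

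RAB3D, the RAB3 gene of secretory granules outside neurons, went the other way. It had 53 counts in brain and 276 in liver, or 1.52 CPM against 12.8, and was 8.43-fold higher in liver (6.26 to 11.5). The other secretory Rab genes were scarce and under 4-fold. RAB27B, which docks granules at the plasma membrane, had 145 brain and 212 liver counts (log2 ratio -1.07, and -0.12 with plain library size), and RAB27A, which has the same task, 23 and 33. RAB37, known from mast cell granules, had 82 and 102. Of the 7 secretory Rab genes, 3 (42.9%) were called in brain and 1 (14.3%) in liver, beside 14.6% and 11.3% of all genes. The median log2 ratio of the 7 was -0.61 (0.08 with plain library size), with 3 above 0 and 4 below 0. Their summed level was 331 CPM in brain, of which RAB3A gave 266, against 31.1 in liver. As a share of all Rab counts, this role took 13.7% in brain and 1.33% in liver.

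**Figure D2:**
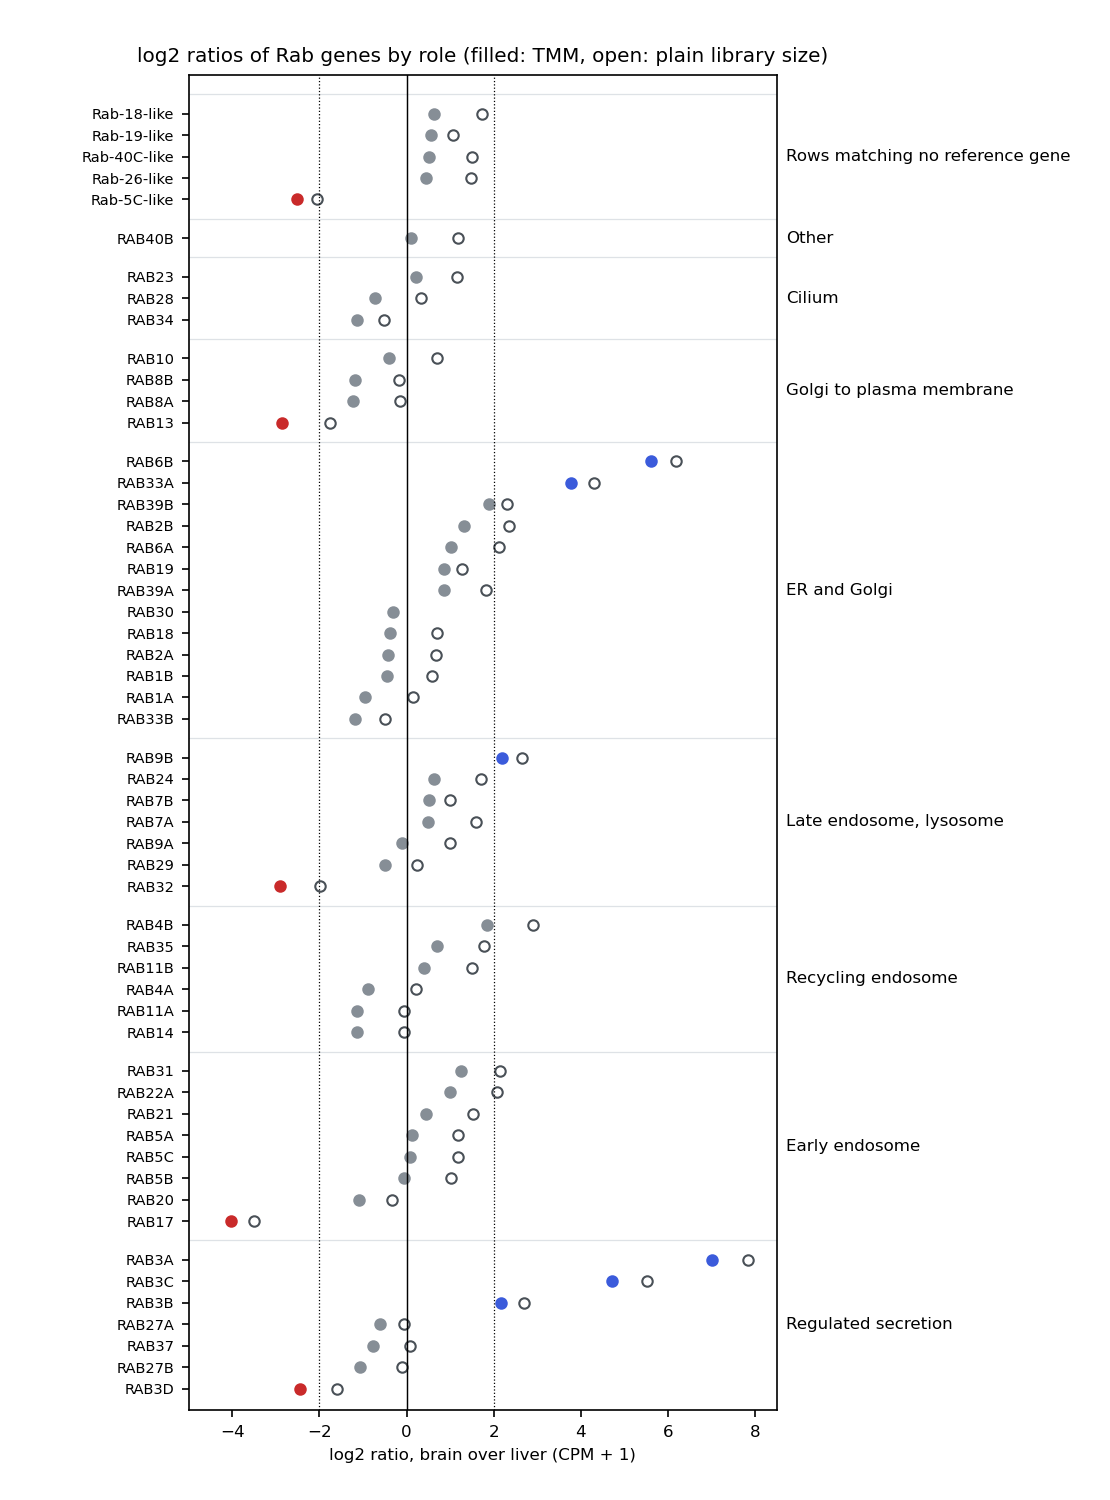
The log2 ratio, brain over liver, of the 54 Rab genes that reached 1 CPM, grouped by role. Filled points use TMM scaling (blue, called in brain; red, called in liver; grey, neither), open points use plain library size for the 53 that reached 1 CPM on that scale, and dotted lines mark 4-fold. The change of scaling moves the points to the right, those of scarce genes by less, while RAB3A, RAB6B, RAB3C and RAB33A stay apart on the brain side and RAB17 on the liver side.

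Among the 13 Rab genes of the ER and the Golgi, RAB6B and RAB33A were called in brain. RAB6B, the neuronal form of the Golgi protein RAB6, had 1827 counts in brain and 2 in liver. At 52.3 CPM against 0.0926 it was 564-fold higher in brain, with an interval of 156 to 4664 set by the 2 liver counts. RAB6A, the form found in most cells, had 8325 and 2543 counts, or 238 CPM against 118, a log2 ratio of 1.01 (2.11 with plain library size). RAB33A, a Golgi Rab of brain and immune cells, had 444 counts in brain and 0 in liver, so that its level in brain exceeded that in liver by at least 91.4-fold.

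RAB39B, a neuronal Rab, also had 0 liver counts, with 94 in brain. It was at least 19.4-fold higher in brain by counts, but its level of 2.69 CPM kept its log2 ratio at 1.88, under the 4-fold rule. Its paralogue RAB39A had 360 and 114 counts (0.85). RAB2B, a Golgi Rab, had levels of 31.6 CPM and 12.2 CPM (1.31, and 2.35 with plain library size).

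Several other genes of this role lay toward liver with TMM scaling and toward brain with plain library size. RAB2A, of transport between ER and Golgi, had 7562 counts in brain and 6255 in liver, or 216 CPM against 290 (log2 ratio -0.42, and 0.69 with plain library size). RAB1A, which is needed for ER to Golgi transport, had 2815 and 3405 counts (-0.96, and 0.14 with plain library size), and RAB1B, of the same function, 342 and 294 (-0.44, and 0.58). RAB18, a Rab of the ER and of lipid droplets, was at 61.1 and 80.1 CPM (-0.39, and 0.71). A second row annotated as Rab-18-like, described below and not counted in this role, lay toward brain with TMM scaling (0.64). The 13 genes of this role took 29.8% of Rab counts in brain and 29.1% in liver, and their median was 0.85. Of the 13, 2 (15.4%) were called in brain and 0 in liver, beside 14.6% and 11.3% of all genes.

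Of 8 early endosome Rab genes, 1 (12.5%) was called in liver and 0 in brain, beside 11.3% and 14.6% of all genes. RAB5C, 1 of the 3 forms of RAB5 that drive fusion of early endosomes, had a level of 138 CPM in brain and 130 CPM in liver, a 1.06-fold difference (1.01 to 1.11). RAB5A and RAB5B gave log2 ratios of 0.12 and -0.070, and with plain library size all 3 stood at 1.01 to 1.18, near the median of all genes on that scale. RAB21, which moves integrins, was at 80.8 and 59.3 CPM (0.44), RAB22A at 60.5 and 30.05 (0.99, and 2.07 with plain library size) and RAB31, a relative of RAB22A, at 8.24 and 2.92 (1.24, and 2.13).

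RAB17, a Rab of epithelial cells that acts in transcytosis, had 0 counts in brain and 329 in liver. It was at least 177-fold higher in liver (15.2 CPM, log2 ratio -4.02), the lowest ratio of all Rab genes. It lies on chromosome 15 and spans 4345 bp. RAB20, an endosome and phagosome Rab, had 43 and 81 counts (-1.09). Liver also had more of several cell type markers. The epithelial marker EPCAM was at 10.8 CPM against 0.858 in brain, and KRT7 had 27 liver counts and 0 in brain. In that list of 4, 1 was called in liver, with sums of 29.7 CPM in liver and 28.6 in brain, since KRT19 and SOX9 were higher in brain. The part of biliary cells in the RAB17 value was not tested.

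The 4 genes of transport from the Golgi to the plasma membrane lay below 0 with TMM scaling, and RAB10 lay above 0 with plain library size. RAB13, which acts at tight junctions of epithelia, had 1684 counts in brain and 7668 in liver. At 48.2 CPM against 355 it was 7.37-fold higher in liver (6.99 to 7.77). It took 15.2% of all Rab counts there, against 1.999% in brain. RAB8A, of polarised transport and cilia, was at 34.0 and 81.6 CPM (-1.24, and -0.15 with plain library size), and RAB8B at 6.24 and 15.4 (-1.18, and -0.17). RAB10, which brings the glucose transporter GLUT4 to the surface of fat cells, was at 98.1 and 129 CPM (-0.40, and 0.70). The median of these 4 genes was -1.21, and -0.16 with plain library size. Their share of Rab counts was 7.73% in brain and 24.9% in liver, and this split does not depend on scaling.

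None of the 6 recycling Rab genes was called with TMM scaling, beside 14.6% of all genes in brain and 11.3% in liver. With plain library size RAB4B was called in brain. RAB4B, of fast recycling from endosomes, had 2615 counts in brain and 437 in liver, or 74.8 CPM against 20.2. It was 3.70-fold higher in brain (3.34 to 4.10), just under the rule, and its log2 ratio was 1.84 (2.91 with plain library size). RAB4A had 1292 and 1488 counts (-0.88, and 0.21). RAB11B, of the slower recycling route, was at 145 and 109 CPM (0.40), and RAB11A at 31.9 and 71.6 (-1.14, and -0.05). RAB35, of fast recycling, stood at 0.69, and RAB14, which moves between Golgi and endosomes, at -1.14 (-0.06 with plain library size).

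Of the 7 late endosome and lysosome Rab genes that reached 1 CPM, 1 was called in each tissue. Of all genes, 14.6% were called in brain and 11.3% in liver. RAB7A, which directs late endosomes to lysosomes, had levels of 192 CPM and 135 CPM (log2 ratio 0.50), and RAB9A, which returns receptors from late endosomes to the Golgi, at 51.4 and 55.1 (-0.10, and 0.99 with plain library size). RAB9B, the scarce paralogue of RAB9A, had 131 counts in brain and 1 in liver, an 80.9-fold difference with an interval from 14.3 to 3221. RAB32, of lysosome-related organelles, had 67 and 449 counts, or 1.92 CPM against 20.8, and was 10.8-fold higher in liver (8.38 to 14.2). Of 5 macrophage markers, 4 were also called in liver, with a sum of 1708 CPM against 84.8 in brain. The leukocyte marker PTPRC was at 48.8 CPM against 7.47. It was the only 1 called of the 3 leukocyte, platelet and erythroid markers that reached 1 CPM. The part of macrophages in the RAB32 value was not tested. RAB24, linked to autophagy, stood at 0.64, and RAB29, with 49 and 51 counts, at -0.48 (0.23 with plain library size).

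Among the remaining genes, RAB23, RAB28 and RAB34, which act at the primary cilium or in its signalling, stood at 0.21, -0.72 and -1.13, the RAB28 value being 0.34 with plain library size. RAB28 had 2 rows in the table, with ratios of -0.56 and -0.76, and they were summed. RAB40B, which carries a domain of ubiquitin ligases, was at 0.10. RAB38 (2 counts in each library), RAB42 (15 and 12) and RAB44 (30 and 11) did not reach 1 CPM. Rows of 3 further Rab genes fell outside the selection because the table gives them neither a Rab name nor a ras-related product. RAB36 had 194 counts in brain and 4 in liver, 29.97-fold higher in brain (11.5 to 111), RAB15 had 398 and 131 (0.81), and RAB25, of epithelia, 11 and 16.

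Within a subfamily, the balance between paralogues can be compared between tissues without regard to length or scaling, provided that each gene uses the same transcripts in both tissues. The RAB3 subfamily changed hands: RAB3A took 82.1% of its counts in brain and 7.10% in liver, and RAB3D took 0.468% in brain and 85.2% in liver. The RAB3D to RAB3A ratio was 2079-fold higher in liver (1242 to 3623). RAB6B took 18.0% of RAB6 counts in brain and 0.0786% in liver, a shift of 279-fold in the ratio to RAB6A (77.0 to 2307). RAB9B shifted toward brain by 86.8-fold against RAB9A (15.3 to 3458), on 1 liver count.

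Shifts in abundant pairs were smaller and better measured. RAB4B took 66.9% of RAB4 counts in brain and 22.7% in liver, so that its ratio to RAB4A was 6.89-fold higher in brain (6.07 to 7.83). The paralogue with more counts, not corrected for length, differed. RAB2B shifted toward brain by 3.48-fold against RAB2A (3.02 to 4.01), RAB11B by 2.97-fold against RAB11A (2.71 to 3.26) and RAB1B by 1.41-fold against RAB1A (1.19 to 1.66). For RAB33, RAB33A took 93.7% of counts in brain, and all 70 liver counts were of RAB33B, a shift of at least 345-fold. RAB39B was shifted toward brain by 9.92-fold against RAB39A on the same floor, also without an interval.

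Within RAB3, the ratio of RAB3C to RAB3A was 4.87-fold higher in liver (2.58 to 9.16), on 22 and 23 liver counts. That of RAB3B to RAB3A was 8.36-fold higher in liver (1.59 to 28.1), on 3 liver counts of RAB3B. For the pairs that remain, the interval of the shift included 1. The ratio of RAB8B to RAB8A was 1.03-fold higher in liver (0.848 to 1.24), that of RAB5C to RAB5A 1.03-fold (0.907 to 1.17) and that of RAB27B to RAB27A 1.02-fold (0.547 to 1.87). RAB5B against RAB5A gave 1.14-fold (0.987 to 1.33) in the same direction. RAB7B, with 40 and 11 counts, gave 1.58-fold toward brain (0.796 to 3.43) against RAB7A. Paralogues of a subfamily are alike in sequence, and reads that fit several of them may have been divided between rows in a way the sources used here do not describe.

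**Figure D3:**
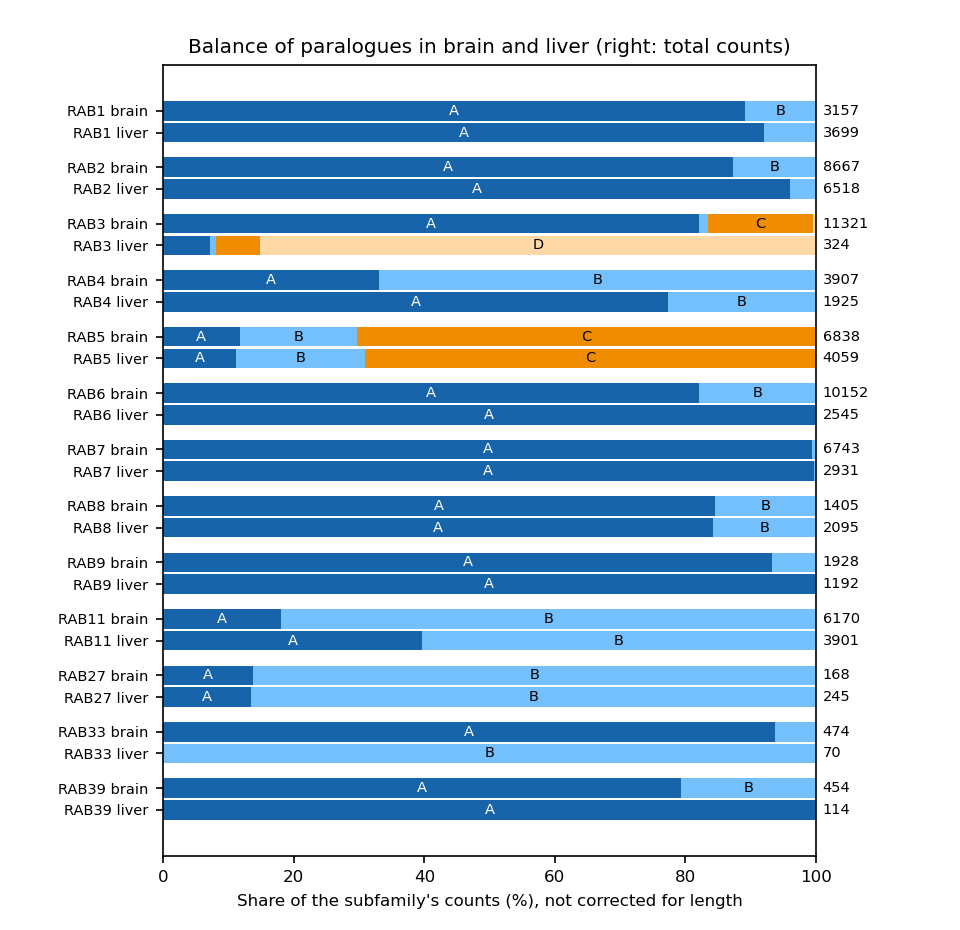
Share of each Rab subfamily's counts (x axis, percent) taken by its lettered members in the brain and in the liver library, for 13 subfamilies. The number at the right is the subfamily's total count. RAB3 passes from A in brain to D in liver and RAB4 from B to A, whereas RAB5, RAB8 and RAB27 keep nearly the same split.

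The 5 rows without a reference match need care. The Rab-5C-like row (LOC100621966), on an unplaced scaffold, had 1 count in brain and 106 in liver, a 172-fold difference (30.1 to 6839), while RAB5C itself differed by 1.06-fold, and which gene its reads come from is not known. The row annotated as Rab-26-like (LOC100518027) had 647 and 288 counts (log2 ratio 0.44). In the table it lies between RAB30 and PCF11, and in the reference gene order RAB30 is the neighbour of PCF11, while RAB26 lies between TRAF7 and PKD1. No value is therefore given for RAB26, the granule Rab. The RAB30 row had 22 counts in each library and spans 4755 bp. The Rab-40C-like row (346 and 142 counts, 0.52) lies beside WFIKKN1, as RAB40C does in the reference. A second Rab-19-like row (43 and 11) lies on the other side of MKRN1 from RAB19 (43 and 5). A second Rab-18-like row had 2532 and 999 counts (0.64), beside 2135 and 1730 for RAB18, and lies near WAC.

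RAB9B and RAB33A lie on chromosome X. Of the 4 Rab genes there, these 2 were called in brain, RAB39B had 0 liver counts and RAB9A stood at -0.10 (0.99 with plain library size). On chromosome X 21.4% of all 514 genes that reached 1 CPM were called in brain. Among the 50 other Rab genes, 4 were (8%).

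Genes that act on Rab proteins or through them were described from lists of 122 genes with a row, 120 of which reached 1 CPM. Of these, 18 (15.0%) were called in brain and 7 (5.83%) in liver, beside 14.6% and 11.3% of all genes, and the median log2 ratio was 0.17. With plain library size 39 and 3 were called, beside 24.2% and 6.02% of all genes, with a median of 1.20. Among genes that serve all Rab proteins, GDI2, an inhibitor that keeps GDP-bound Rab proteins in the cytosol, had 9016 and 11679 counts (log2 ratio -1.07, and 0.04 with plain library size). RABGGTB, a subunit of the enzyme that attaches lipid to Rab proteins, stood at -0.33 (0.76 with plain library size), and RABAC1, a Rab-binding membrane protein, at -0.43 (0.63).

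Of 24 GEFs 1 was called in brain and 0 in liver (median 0.19), and of 27 GAPs 1 and 0 (median 0.01), beside 14.6% and 11.3% of all genes. With plain library size 5 GEFs and 8 GAPs were called in brain, beside 24.2% of all genes. The called GEF was RIN1, which acts on RAB5, with 242 counts in brain and 1 in liver (interval of the fold 26.6 to 5930). The called GAP was SGSM1, at 28.8 and 1.94 CPM. RIN1 and SGSM1 were named after their values were seen. DENND5A, a GEF for RAB39, was at 139 and 40.8 CPM (1.74), and MADD, a GEF for RAB3, at 50.3 and 27.8 (0.83). RABGAP1 stood at 1.96, just under 4-fold, and RAB3GAP1, the catalytic subunit of an enzyme complex that acts on RAB3 and RAB18, at 0.25. Below 0 lay 8 of the 24 GEFs and 13 of the 27 GAPs. Among them were the GEF list's CCZ1, at 55.9 and 113 CPM (-1.01, and 0.09 with plain library size), and RAB3GAP2 (-0.27, and 0.82).

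Of 61 effectors, 15 (24.6%) were called in brain, beside 14.6% of all genes, and 7 (11.5%) in liver, beside 11.3%. Of the 14 for secretion, 6 were called in brain and 2 in liver, with a median of 1.57. RIMS1, the active zone protein that binds RAB3, had 151 CPM against 2.13, 70.9-fold higher in brain (53.1 to 97.03), and RPH3A, rabphilin, was 119-fold higher (57.4 to 295). MYO5A, a myosin that carries RAB27-marked cargo, was at 174 and 2.82 CPM. UNC13D, which works with RAB27A in granule release of blood cells, was 56.3-fold higher in liver (38.2 to 86.6), with 41.9 CPM against 0.744. SYTL4, granuphilin, stood at -2.37 (-1.48 with plain library size).

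Of 26 endosome and lysosome effectors, 6 (23.1%) were called in brain and 2 (7.69%) in liver (median 0.24), beside 14.6% and 11.3% of all genes. GRIPAP1, an endosomal protein of neurons, had 492 CPM against 37.0 (3.70), RUFY3 at 298 and 37.8 (2.95) and RAB11FIP4, a RAB11 effector, at 80.3 and 4.31 (3.94). RILP, the RAB7 effector that recruits dynein, was at 2.78 and 28.1 CPM (-2.94, and -1.99 with plain library size). PLIN3, known as a RAB9 partner and as a lipid droplet protein, was at 6.27 and 45.9 (-2.69, and -1.66). EEA1, the early endosome tether of RAB5, stood at -0.50 (0.60 with plain library size).

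Golgi effectors were divided, with 3 of 21 (14.3%) called in each tissue (median -0.16), beside 14.6% and 11.3% of all genes. With plain library size 7 were called in brain and 2 in liver (median 0.92), beside 24.2% and 6.02% of all genes. ERC2, an active zone protein of a family that binds RAB6, was 172-fold higher in brain (55.8 CPM against 0.324), and BICD1, a RAB6 effector that recruits dynein, 16.99-fold higher (10.3 to 29.99). OPTN, optineurin, a RAB8 partner, was at 71.7 and 700.1 CPM (-3.27, and -2.17 with plain library size). USO1, the RAB1 effector that tethers vesicles at the Golgi, was at 75.3 and 298 CPM (-1.97, and -0.87), and GOLGA5, a golgin, at 26.8 and 123 (-2.16, and -1.07). RAB11FIP4, RPH3A and GOLGA5 were also named after their values were seen.

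**Figure D4:**
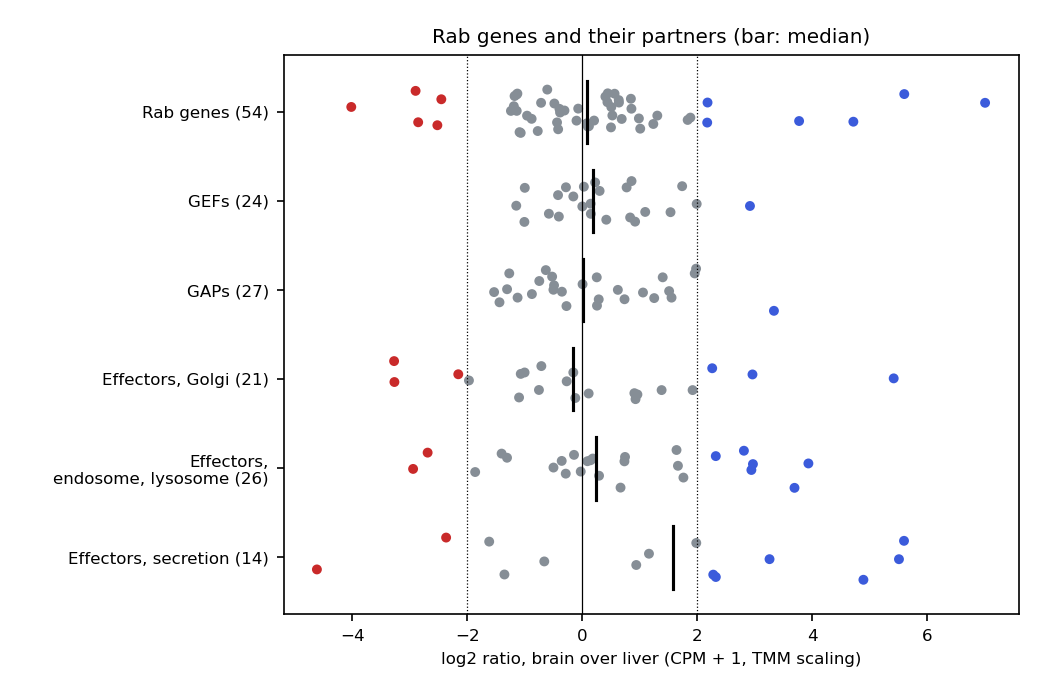
The log2 ratio, brain over liver, of the Rab genes and of 5 lists of their partners that reached 1 CPM (number of genes in brackets), with each point a gene, coloured blue where called in brain and red where called in liver, and the bar at the median. Dotted lines mark 4-fold. The medians of 5 groups lie between -0.16 and 0.24, and that of the secretion effectors at 1.57.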

How the data were processed

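The authors deposited 1 table with raw counts per gene row for brain and liver, and a length in bp, taken as the span of the gene in the genome, which was not used for scaling. That the values are counts was read from the numbers. TopHat and the pig build Sscrofa10.2 (also named susScr3) were used, per the submitters' processing notes. How reads were counted, and with which strand, is not given in the sources used here, so reads of overlapping or near-identical genes may be shared.

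The table has 21817 rows. Names came from the table for 8200 rows, from a RefSeq gene table of Sscrofa11.1 by gene number for 6385 and by transcript accession for 22, and 7210 rows stayed unnamed. Rows of 1 name were summed. Totals were 23796843 counts in brain and 31724498 in liver. TMM factors (edgeR 4.0.16, R 4.3.3, no test) were 1.47 and 0.681, so that 1 CPM equals 35.0 counts in brain and 21.6 in liver. Counts of called genes cover those that reached 1 CPM in either library. Folds of single genes use CPM without a pseudocount, with exact conditional binomial 95% intervals (SciPy 1.17.1). Ratios between paralogues have exact conditional intervals. Where a library had 0 counts, a floor of 3 counts per library (0.0858 CPM in brain, 0.139 in liver) gave a lower bound. This bound leaves out the counting error of the other counts.

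Genes were named by a rule: members at 4-fold or more, the 2 members with most counts in each role, up to 4 members of each partner list with the highest mean level and those called in the direction opposite to the list's median. Not all of these are described, and partners outside the rule are marked in the text. In the partner lists ZFYVE20 and RBSN are names of 1 gene with 2 rows, counted separately. The members and lists were chosen with earlier results of these data known. The procedure was tested on simulated data with counting error only and with changes planted in genes that were not scarce. That test cannot speak to differences between animals or to changes in scarce genes.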

Additional observations from a re-analysis of the deposited data

How the results depend on the processing

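The counts of Rab genes called, 6 in brain and 5 in liver, and their median log2 ratio of 0.09 changed with some settings. A pseudocount of 5 CPM gave 3 and 2 called, since scarce genes lost their call, beside 7.88% and 7.15% of all genes. Plain library size gave 12 and 2, with a median of 1.03, beside 24.2% and 6.02% of all genes, whose median was 0.98. Taking only genes named RAB in the table gave 2 and 3 of 23, with a median of -0.42, as RAB3B, RAB3C, RAB6B and RAB9B carry no such name there. A 2-fold rule gave 11 and 13, beside 27.6% and 24.4% of all genes. An 8-fold rule gave 4 and 1, beside 8.54% and 5.7%. Without the 5 rows that match no reference gene, a setting added after the data were seen, the median was -0.070. With a pseudocount of 0.1, no filter or a filter at 5 CPM, the other scalings, the highest row per gene, or RAB15, RAB25 and RAB36 added after the data were seen, both counts stayed within 1.5 times and the median between 0.08 and 0.11. No called Rab gene changed sign. No paired analysis was possible because each tissue had 1 library. Depth limits RAB6B, RAB9B and RAB3B, with 1 to 3 liver counts, whose folds have intervals more than 10-fold wide.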
